A study of Mus musculus with 6 samples.

Results

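The mRNA levels of 8 genes that encode sequence-reading or adaptor proteins of cytoplasmic mRNA decay were followed in mouse heart. The genes were chosen by symbol (Zfp36, Zfp36l1, Zfp36l2, Rc3h1, Btg1, Btg2, Tob1 and Tob2), all 8 were found among the 16229 genes of the deposited table, and all 8 passed the filter on low values that left 12981 genes for testing. They were put together with results of these libraries in view: Zfp36 and Btg2 were known to be higher with rivaroxaban and Zfp36 with dabigatran. Their differences from untreated hearts are therefore given as a description, with the spread and without a p-value. Calls at an adjusted p threshold are stated only to place each gene within the whole table. Poly-A RNA had been sequenced from heart tissue of wild-type male C57BL/6 mice of 8-10 weeks, with 2 libraries in each of 3 groups. Mice of the rivaroxaban group (replicates 14 and 15) received 3 mg/kg of this inhibitor of coagulation factor Xa over 7 days. Those of the dabigatran group (replicates 10 and 12) received 10 mg/kg of this thrombin inhibitor over the same time. The remaining group was untreated (replicates 8 and 9). No other allele or agent is named for any group. The protocol describes all the tissue as infarct with its surroundings, and the labels do not say whether untreated mice had surgery. Nor do they state that each library is a different animal, and the p-values below therefore rest on a spread that may be technical.

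The degradation of most mRNAs starts with the shortening of the poly(A) tail by the CCR4-NOT complex, whose deadenylase subunits include the Caf1 proteins Cnot7 and Cnot8. Proteins of the ZFP36 family, of which tristetraprolin (Zfp36) is the founding member, bind AU-rich elements in 3' untranslated regions (3'UTRs) through paired CCCH zinc fingers and bring CCR4-NOT to the message. Roquin-1, encoded by Rc3h1, reads stem-loops in 3'UTRs instead and also recruits this complex. BTG and TOB proteins bind the Caf1 subunits directly, and the TOB proteins also contact cytoplasmic poly(A)-binding protein. Many targets of the family are short-lived messages of inflammation, growth and the cell cycle, and Zfp36 and Btg2 are themselves rapidly induced genes in many cell types.

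Messages of the ZFP36 family can themselves carry the element that the family reads. The 7-letter core TATTTAT was counted on the sense strand of the longest annotated 3'UTR of each gene (GENCODE M21, GRCm38). Zfp36 held 3 copies in 774 bases, Zfp36l1 held 3 in 1835 bases, Zfp36l2 held 3 in 1822 bases and Rc3h1 held 2 in 7181 bases. Btg2 held 1 in 2199 bases and Tob2 held 1 in 2457 bases, whereas Btg1 (4166 bases) and Tob1 (767 bases) held none. At least 1 copy was thus present in 6 of 8 genes (75%), against 3745 of 12301 tested genes with an annotated 3'UTR (30.4%), and at least 3 copies in 3 of 8, against 4.14% of tested genes. The 3'UTRs of the 8 genes were also longer, with a median of 2017 bases against 1200 bases. The sites of the 4 genes that were higher with both drugs, which include every copy in Zfp36, Btg2, Tob2 and Rc3h1, follow in the sense direction with the core in capitals, as a description of letters and not of bound sites.
Zfp36 at chr7:28376973-28376987, minus strand: ccttTATTTATgacg
Zfp36 at chr7:28376958-28376972, minus strand: acttTATTTATtgta
Zfp36 at chr7:28376933-28376947, minus strand: atagTATTTATatat
Btg2 at chr1:134077256-134077270, minus strand: gagcTATTTATacat
Tob2 at chr15:81849867-81849881, minus strand: tgctTATTTATgtac
Rc3h1 at chr1:160970050-160970064, plus strand: tcatTATTTATtgag
Rc3h1 at chr1:160971404-160971418, plus strand: catgTATTTATtctt

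Promoters were read because 4 of the genes moved together. In the 250 bases before the RefSeq start (GRCm38.p6), both strands were searched for the cyclic AMP response element TGACGTCA, the AP-1 site TGACTCA, the E-box CACGTG, the CArG box of serum response factor, the glucocorticoid response element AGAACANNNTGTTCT, the heat shock element GAANNTTCNNGAA and the KLF-type box CCACGCCC. The Btg2 promoter held the cyclic AMP response element at -166 to -159 (found in 1.55% of 32851 promoters). In the Zfp36 promoter, a CArG box lay at -58 to -49 (1.47% of promoters), on letters that also form a TATA-like stretch, and a KLF-type box at -76 to -69 (4.79%). The Rc3h1 promoter held an AP-1 site at -133 to -127 (4.46%) and 3 KLF-type boxes at -95 to -88, -76 to -69 and -57 to -50, a number reached by 31 promoters (0.0944%). The windows of Zfp36 and Tob2 lie wholly within exons of longer transcripts in GENCODE M21 (250 of 250 bases), so they are upstream of the RefSeq start only. None of these letters were found in the windows of Tob1, Tob2, Btg1 and Zfp36l1, although Tob2 is the gene with the largest difference below, and Zfp36l2 had no entry. The E-box (6.02%), the glucocorticoid response element (0.00913%) and the heat shock element (0.466%) were in none of the windows read. The Btg2 and Rc3h1 windows and the CArG stretch of Zfp36 are printed in the direction of the gene, with the matches in capitals; the motifs were chosen after the promoters had been read, and a match is not a bound site.
Btg2 promoter at chr1:134079156-134079405, minus strand: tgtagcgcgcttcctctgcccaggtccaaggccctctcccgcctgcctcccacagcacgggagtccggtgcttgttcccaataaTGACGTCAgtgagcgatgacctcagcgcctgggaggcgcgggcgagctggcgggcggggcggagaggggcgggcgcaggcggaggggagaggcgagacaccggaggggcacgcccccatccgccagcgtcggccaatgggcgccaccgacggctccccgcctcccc
Rc3h1 promoter at chr1:160906161-160906410, plus strand: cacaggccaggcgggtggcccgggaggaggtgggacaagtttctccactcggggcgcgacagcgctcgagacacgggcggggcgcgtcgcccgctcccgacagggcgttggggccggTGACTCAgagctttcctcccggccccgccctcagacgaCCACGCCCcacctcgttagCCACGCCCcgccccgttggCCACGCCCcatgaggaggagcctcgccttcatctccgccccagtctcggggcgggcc
Zfp36 CArG stretch at chr7:28379269-28379294, minus strand: aggccgccCCATAAAAGGagaaagct

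The mRNAs of Tob2, Btg2, Rc3h1 and Zfp36 were higher in every drug library than in both untreated libraries, and those of Btg1 and Zfp36l1 were lower in every drug library. For Zfp36l2 and Tob1, 1 of the drug groups overlapped the untreated group. With rivaroxaban, 4 of the 8 genes were called higher and none lower (limma, Benjamini-Hochberg adjusted p at or below 0.05 over all tested genes), where 2.46% of all tested genes were called, 1.47% higher and 0.986% lower. With dabigatran, the same 4 genes were called higher and none lower, where 1.88% of all tested genes were called, 1.38% higher and 0.501% lower. Since earlier results of the same libraries chose the genes, these calls are no independent test: for each gene, called says only where its row fell in the fit of the whole table, and nothing is read from the counts. Without the mean-variance trend in the limma fit, 0 of the 8 genes and 0 of all tested genes were called with either drug. Both comparisons use the same untreated libraries and are not independent of each other. The median log2 difference of the 8 genes was 0.20 with rivaroxaban and 0.19 with dabigatran, while the median over all tested genes was 0.005 and 0.003. The choice of genes already known to be higher enters the medians of the 8, so nothing is read from this contrast either. In such bulk tissue, fewer cells of a type and less RNA per cell cannot be told apart.

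**Figure D1:**
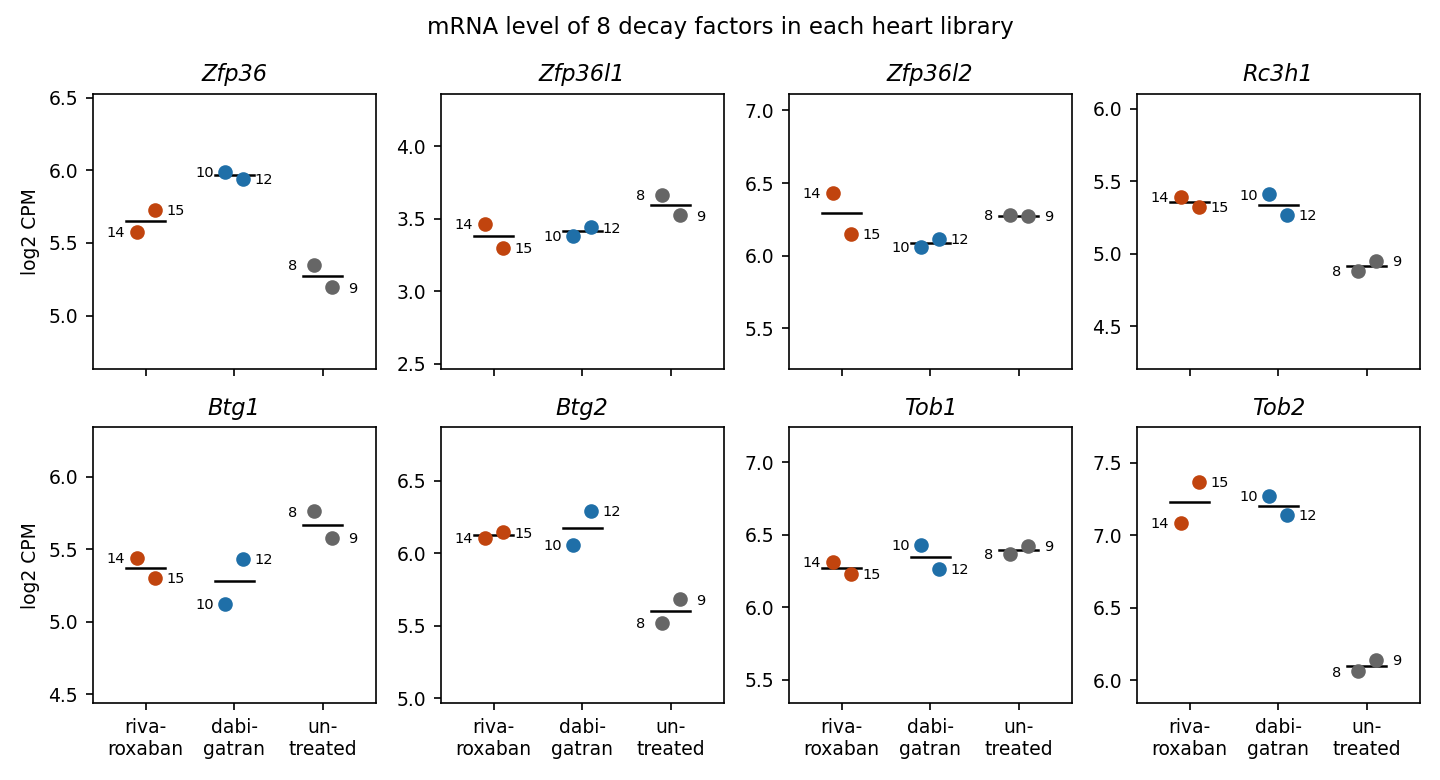
Level of each gene, in log2 CPM (reads scaled to library size) on the vertical axis, in the rivaroxaban, dabigatran and untreated libraries; each point is a library, marked with its replicate number, and the line is the group mean. Every drug library lies above both untreated libraries for Zfp36, Rc3h1, Btg2 and Tob2.

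Zfp36 (ENSMUSG00000044786, chr7:28376784-28380253, minus strand, GRCm38) stood at 5.57 and 5.73 log2 CPM in the rivaroxaban libraries and 5.99 and 5.94 in the dabigatran libraries, against 5.35 and 5.19 in the untreated libraries. The 3 groups did not overlap: dabigatran libraries were the highest, rivaroxaban libraries lay between and untreated libraries were the lowest. The log2 difference from untreated was 0.38 with rivaroxaban (SE 0.08, 95% interval 0.21 to 0.55, 1.3-fold) and 0.69 with dabigatran (SE 0.08, interval 0.52 to 0.86, 1.62-fold). Both were called, but the rivaroxaban call was lost without rivaroxaban replicate 15 (0.30) and without untreated replicate 9 (0.30). Behind these values stood 1732 and 1546 reads with rivaroxaban, 1702 and 2679 with dabigatran and 1162 and 1182 without treatment.

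Neither of its relatives with the same type of zinc finger was called. Zfp36l1 (ENSMUSG00000021127, chr12:80107754-80113013, minus strand) measured 3.47 and 3.30 log2 CPM with rivaroxaban and 3.38 and 3.44 with dabigatran, against 3.66 and 3.52 in untreated hearts. All 4 drug libraries lay below both untreated libraries, by little. The log2 differences were -0.21 (95% interval -0.44 to 0.02) with rivaroxaban and -0.18 (-0.41 to 0.05) with dabigatran, and neither was called. Zfp36l2 (ENSMUSG00000045817, chr17:84183931-84187947, minus strand) measured 6.43 and 6.15 log2 CPM with rivaroxaban and 6.06 and 6.11 with dabigatran, against 6.28 and 6.27 in untreated hearts. The rivaroxaban libraries fell on either side of the untreated pair and the dabigatran libraries below it. Its log2 differences were 0.02 (-0.17 to 0.20) with rivaroxaban and -0.19 (-0.37 to -0.006) with dabigatran, again without a call. Zfp36l1 was the least deeply covered of the 8 genes, with 278 to 471 reads in a library, for which counting alone gives an SD of at most 0.0865 on the log2 scale.

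Rc3h1 (ENSMUSG00000040423, chr1:160906418-160974978, plus strand), the stem-loop reader, reached 5.39 and 5.33 log2 CPM with rivaroxaban and 5.41 and 5.27 with dabigatran, against 4.88 and 4.95 in untreated hearts. The 2 drug groups interleaved, and both stood clear of the untreated pair. Its log2 difference was 0.44 with rivaroxaban (SE 0.07, 95% interval 0.28 to 0.60, 1.36-fold) and 0.42 with dabigatran (SE 0.07, 0.26 to 0.58, 1.34-fold). Of the 4 genes, its calls were lost most often when 1 library was left out. The rivaroxaban call was lost without rivaroxaban replicate 14 (0.41), rivaroxaban replicate 15 (0.47) or untreated replicate 8 (0.41), and the dabigatran call without dabigatran replicate 10 (0.35) or untreated replicate 8 (0.39). Its paralogue Rc3h2, which encodes Roquin-2, differed by 0.07 (adjusted p = 0.608) with rivaroxaban and 0.03 (adjusted p = 0.876) with dabigatran by limma.

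Among the adaptors of the Caf1 deadenylase, Tob2 had the largest difference. Tob2 (ENSMUSG00000048546, chr15:81848272-81858796, minus strand) reached 7.08 and 7.37 log2 CPM with rivaroxaban and 7.27 and 7.14 with dabigatran, against 6.06 and 6.14 in untreated hearts. The lowest drug library stood far above the highest untreated library, and the drug groups overlapped. The log2 difference was 1.13 with rivaroxaban (SE 0.09, 95% interval 0.94 to 1.32, 2.18-fold) and 1.10 with dabigatran (SE 0.09, 0.91 to 1.29, 2.15-fold). By absolute size these differences ranked 46 and 40 among 12981 tested genes. No left-out library ended either call. The rivaroxaban libraries held 4931 and 4826 reads, the dabigatran libraries 4131 and 6143, and the untreated libraries 1902 and 2278.

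Tob1 (ENSMUSG00000037573, chr11:94211454-94215495, plus strand), the closest relative of Tob2, measured 6.32 and 6.23 log2 CPM with rivaroxaban and 6.43 and 6.27 with dabigatran, against 6.37 and 6.43 in untreated hearts. Rivaroxaban libraries lay just below the untreated pair, and dabigatran libraries overlapped it. The log2 differences of -0.12 (95% interval -0.27 to 0.03) with rivaroxaban and -0.05 (-0.20 to 0.10) with dabigatran were not called, and their intervals leave out changes of the size seen for Tob2.

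Btg2 (ENSMUSG00000020423, chr1:134075170-134079120, minus strand), an antiproliferative gene also known as a target of p53, reached 6.11 and 6.14 log2 CPM with rivaroxaban and 6.06 and 6.29 with dabigatran, against 5.52 and 5.68 in untreated hearts. All 4 drug libraries were above both untreated libraries, and the rivaroxaban pair lay within the range of the dabigatran pair. The log2 difference was 0.53 with rivaroxaban (SE 0.08, 95% interval 0.34 to 0.71, 1.44-fold) and 0.58 with dabigatran (SE 0.08, 0.39 to 0.76, 1.49-fold). The rivaroxaban call was lost without rivaroxaban replicate 15 (0.51) or untreated replicate 8 (0.44), and the dabigatran call without untreated replicate 8 (0.49).

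Btg1 (ENSMUSG00000036478, chr10:96617006-96622809, plus strand) is, like Btg2, an antiproliferative adaptor and was not called with either drug. It measured 5.44 and 5.30 log2 CPM with rivaroxaban and 5.12 and 5.44 with dabigatran, against 5.76 and 5.58 in untreated hearts. All 4 drug libraries lay below both untreated libraries. The log2 difference was -0.30 (SE 0.10, 95% interval -0.53 to -0.07) with rivaroxaban and -0.39 (SE 0.10, -0.62 to -0.16) with dabigatran. Neither was called with all libraries, and the dabigatran difference was called lower (-0.55) without dabigatran replicate 12. The more distant relative Btg3 differed by -0.01 (adjusted p = 0.964) with rivaroxaban and -0.03 (adjusted p = 0.929) with dabigatran by limma.

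**Figure D2:**
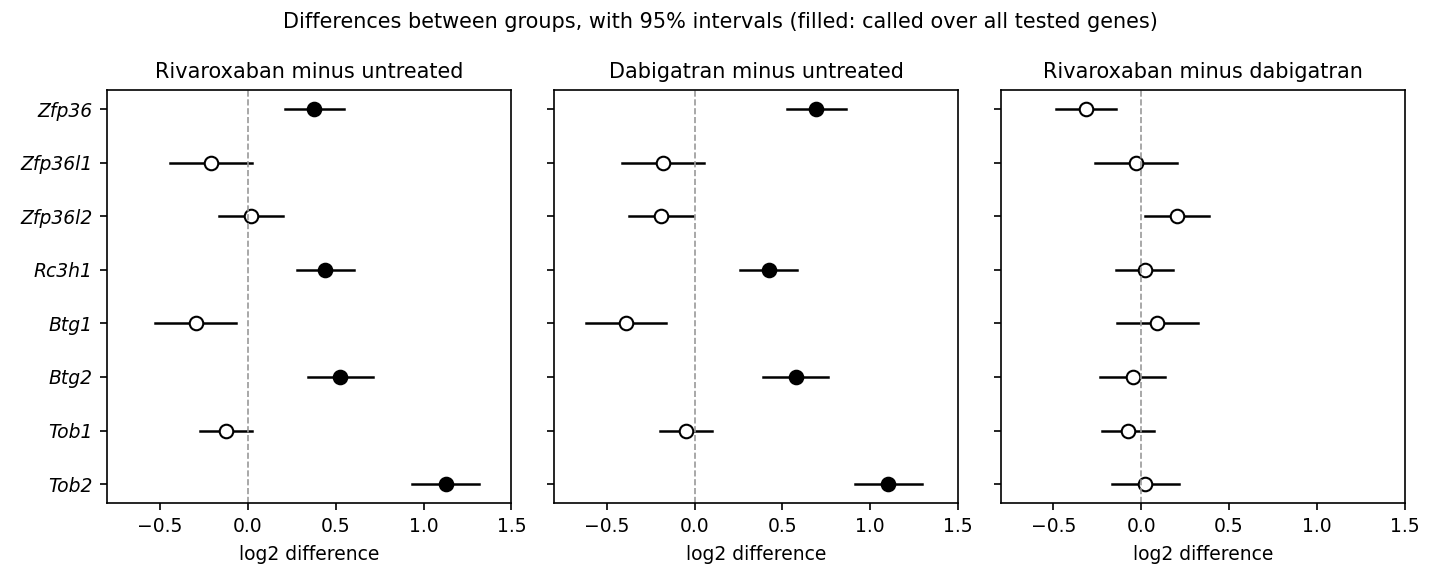
Log2 differences of the 8 genes on the horizontal axis for rivaroxaban against untreated, dabigatran against untreated and rivaroxaban against dabigatran; lines are 95% intervals from the limma fit, and filled points were called over all tested genes. Tob2 stands near 1.1 against untreated with both drugs, and no gene is filled between the drugs.

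Counted over the pairs of libraries, 4 of the 8 genes lay wholly above and 3 wholly below the untreated libraries with rivaroxaban, where 50.6% of all tested genes did not overlap, 26.1% above and 24.5% below. With dabigatran the numbers were 4 above and 3 below, where 43.6% of all tested genes did not overlap, 22.8% above and 20.8% below. The gene below with rivaroxaban and not with dabigatran was Tob1, and the gene below with dabigatran and not with rivaroxaban was Zfp36l2.

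The same reads were also counted as shares within each family of close relatives. Of the reads of Tob1 and Tob2 together, Tob2 took 63.0% (Wilson 95% interval 61.9% to 64.1%) and 68.7% (67.7% to 69.8%) with rivaroxaban and 64.1% (63.0% to 65.3%) and 64.7% (63.7% to 65.6%) with dabigatran. In untreated hearts it took 44.7% (43.2% to 46.2%) and 45.0% (43.7% to 46.4%). Tob2 was thus the more heavily read gene of the pair in every drug library, and Tob1 in both untreated libraries. Btg2 took 61.4% and 64.2% of the reads of Btg1 and Btg2 with rivaroxaban and 65.7% and 64.4% with dabigatran, against 45.8% and 51.8% in untreated hearts. Zfp36 took 32.8% and 39.6% of the reads of the 3 ZFP36 genes with rivaroxaban and 45.2% and 43.4% with dabigatran, against 31.1% and 29.2% in untreated hearts. The drug and untreated libraries did not overlap in any of these shares, which restate the levels above and get no test. The intervals cover counting error only, since no molecular identifiers were read and duplicate reads of a molecule count again.

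**Figure D3:**
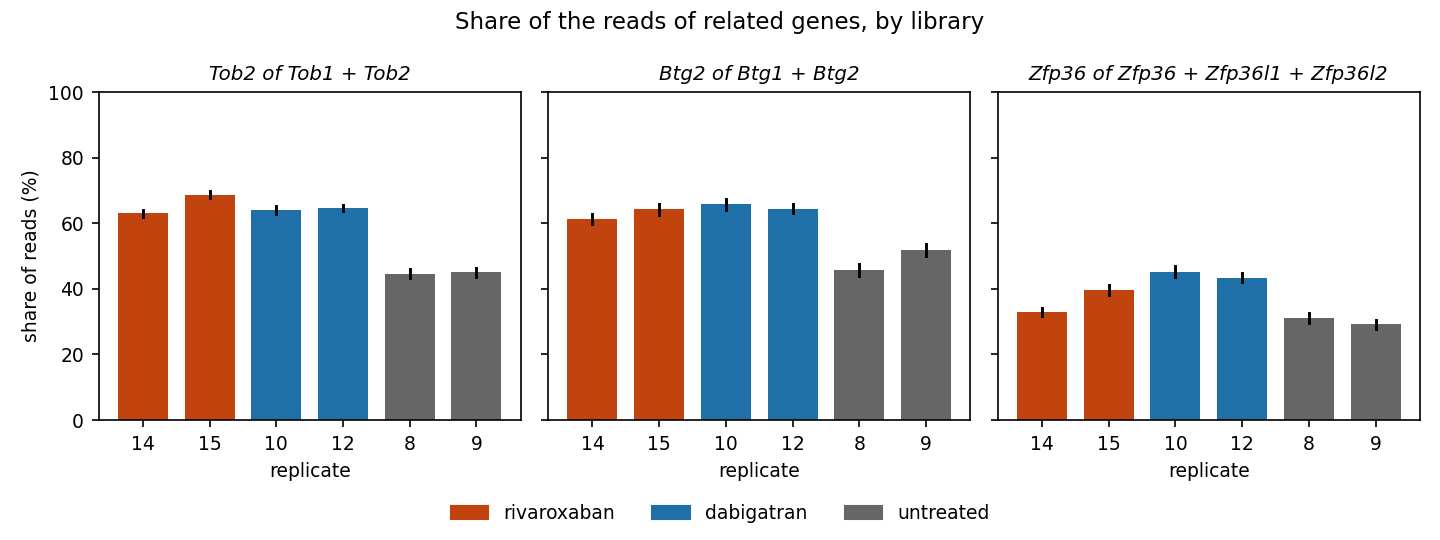
Share of reads, in % on the vertical axis, taken by Tob2 of Tob1 and Tob2, by Btg2 of Btg1 and Btg2 and by Zfp36 of Zfp36, Zfp36l1 and Zfp36l2; each bar is a library, and the lines are Wilson 95% intervals. Tob2 takes 63.0% to 68.7% in the drug libraries and 44.7% to 45.0% in the untreated libraries.

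To set levels of different genes side by side, CPM were divided by the length of the coding transcript in kb. With rivaroxaban, the means were 36.2 for Tob2 and 33.8 for Tob1 CPM per kb, and the ranges of their libraries overlapped (32.6 to 39.8 and 32.8 to 34.8). Below them came Btg2 (25.4), Zfp36l2 (22.3), Zfp36 (18.0), Btg1 (8.27), Rc3h1 (3.72) and Zfp36l1 (3.48), and of these neighbours only Rc3h1 and Zfp36l1 had overlapping libraries. With dabigatran, Tob1 (35.6) and Tob2 (35.5 CPM per kb) overlapped at the top, ahead of Btg2 (26.4), Zfp36 (22.4), Zfp36l2 (19.2), Btg1 (7.80), and Rc3h1 (3.68) and Zfp36l1 (3.54), which overlapped. In untreated hearts the order was Tob1 (36.8 CPM per kb), Zfp36l2 (21.9), Btg2 (17.7), Tob2 (16.5), Zfp36 (13.9), Btg1 (10.2), Zfp36l1 (4.02) and Rc3h1 (2.74). Tob2 thus stood level with Tob1 in the drug groups and below Btg2 in the untreated group, where the libraries of Btg2 (16.7 to 18.7) and Tob2 (16.1 to 17.0) overlapped; no other neighbours in that order did. The place of Tob2 depends on the length used, and so does the order of Zfp36 and Zfp36l2 with dabigatran. With all annotated exons joined Tob2 held rank 3 in the rivaroxaban group (22.6 CPM per kb) and the dabigatran group (22.1) and rank 5 in untreated hearts (10.3). By that length, Zfp36 in the dabigatran group (18.0, libraries 17.7 to 18.3) stood below Zfp36l2 (19.2, libraries 18.9 to 19.6).

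Rivaroxaban and dabigatran hearts were compared directly, and none of the 8 genes was called (limma, adjusted over all tested genes), where 10 of 12981 tested genes (0.077%) were. At an unadjusted p under 0.05 there were 2 of the 8 genes, against 8.43% of all tested genes, and limma on voom-weighted reads also called none. Zfp36 was lower with rivaroxaban than with dabigatran by a log2 difference of -0.32 (95% interval -0.48 to -0.15, adjusted p = 0.241), and the libraries did not overlap. Zfp36l2 differed the other way by 0.21 (0.02 to 0.39, adjusted p = 0.535), again without overlap, where groups failed to overlap in 39.7% of all tested genes, 19.3% higher and 20.4% lower with rivaroxaban. For the rest the difference was at or near 0 with limits that differ between genes. It was 0.02 for Tob2 (-0.17 to 0.21, adjusted p = 0.97), 0.02 for Rc3h1 (-0.14 to 0.18, adjusted p = 0.969) and -0.05 for Btg2 (-0.23 to 0.13, adjusted p = 0.917). For Tob1 it was -0.07 (-0.22 to 0.08, adjusted p = 0.83), for Btg1 0.09 (-0.14 to 0.32, adjusted p = 0.862) and for Zfp36l1 -0.03 (-0.26 to 0.20, adjusted p = 0.968). These intervals bound the differences but do not show that the drugs act alike, and the doses differed (3 against 10 mg/kg).

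The tested genes whose levels ran most like those of 3 of these genes over the 6 libraries are named as a description, by Pearson's r, with no p-value, since the libraries share groups. Glul, Ppp4r3b, Fanci, Zfp655 and Irak2 were most like Zfp36, with r between 0.983 and 0.989. Itga1, Sde2, Fech, Aoc2 and Mfsd1 were most like Btg2, with r between 0.984 and 0.996. Tob2, added after its values were seen, was most like Cep120, Cpsf1, Rnf111, Snrk and Meikin, with r between 0.995 and 0.999.

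In the machinery that the 8 proteins call on, no gene of the CCR4-NOT complex passed the test. Of its 9 subunits tested, none was called with either drug. The share called over all tested genes was 2.46% with rivaroxaban and 1.88% with dabigatran. These 2 shares also apply to the deadenylase, decapping, exosome and p38 lists that follow. At such shares a short list is likely to hold no called gene, so nothing is read from the absence of calls. None of the 9 subunits had an unadjusted p under 0.05, a value that 17.2% of all tested genes reached with rivaroxaban and 14.7% with dabigatran. Their log2 differences ran from 0.04 to 0.13 with rivaroxaban (median 0.05, 9 of 9 above 0) and from -0.10 to 0.07 with dabigatran (median -0.003). The scaffold Cnot1 differed by 0.08 (adjusted p = 0.54) and -0.03 (adjusted p = 0.855), and Cnot3 by 0.05 (adjusted p = 0.759) and -0.10 (adjusted p = 0.558), with rivaroxaban and dabigatran in that order, by limma.

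Among 8 other deadenylases and poly(A)-binding proteins, none was called, with 3 at an unadjusted p under 0.05 with each drug (17.2% of all tested genes with rivaroxaban and 14.7% with dabigatran). Noct encodes nocturnin, a clock-regulated protein first described as a deadenylase, and stood at 5.96 and 6.26 log2 CPM with rivaroxaban and 6.33 and 5.62 with dabigatran, against 5.42 and 5.42 in untreated hearts. Every drug library was above the untreated pair, but dabigatran replicates 10 and 12 were far apart. The log2 difference was 0.69 with rivaroxaban (SE 0.18, limma adjusted p = 0.0745) and 0.56 with dabigatran (SE 0.18, limma adjusted p = 0.157). The rivaroxaban difference was called without dabigatran replicate 10 (limma adjusted p = 0.00249), without dabigatran replicate 12 (0.00231) or with only the 2 groups compared (0.0025). The dabigatran difference rested on single libraries: it was 0.20 without dabigatran replicate 10 (limma adjusted p = 0.535), and 0.91 and called without dabigatran replicate 12 (limma adjusted p = 0.00249). Pan3, which anchors the Pan2 deadenylase, differed by 0.16 (limma adjusted p = 0.267) with rivaroxaban and 0.21 (0.179) with dabigatran.

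None of 16 genes of decapping and 5'-to-3' decay was called with either drug, with 3 at an unadjusted p under 0.05 with rivaroxaban (17.2% of all tested genes) and 1 with dabigatran (14.7%). The same 2 background shares apply to the exosome and p38 counts that follow. Patl1, an activator of decapping, differed by 0.18 (limma adjusted p = 0.173) with rivaroxaban and 0.17 (0.254) with dabigatran, and Lsm6, a subunit of Lsm rings, by -0.20 (0.187) and -0.15 (0.381). None of 14 exosome genes was called, with 0 at an unadjusted p under 0.05 with rivaroxaban and 1 with dabigatran. Exosc1 differed by 0.17 (limma adjusted p = 0.382) with rivaroxaban and 0.23 (0.277) with dabigatran, and Exosc9 by -0.12 (0.462) and -0.05 (0.823). In the p38 pathway, the kinase MK2 phosphorylates tristetraprolin, 14-3-3 proteins bind the phosphorylated form and the phosphatase PP2A reverses it. None of the 11 genes tested there was called with either drug, with 2 at an unadjusted p under 0.05 with each. Ywhaz, a 14-3-3 protein, differed by 0.19 (limma adjusted p = 0.0832) with rivaroxaban and 0.10 (0.399) with dabigatran, and Ppp2r1a, the PP2A scaffold, by -0.17 (0.157) and -0.18 (0.155). The RNA values do not bear on phosphorylation itself.

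Of 17 other 3'UTR-binding proteins tested, Arid5a was called higher with both drugs and no other was called. Over all tested genes, 1.47% were called higher with rivaroxaban and 1.38% with dabigatran. The list was chosen with earlier results of these libraries known, so its calls are no independent test. Arid5a, known in mouse for protecting Il6 mRNA from decay, an effect opposite to that of Roquin and its partners, measured 3.87 and 3.86 log2 CPM with rivaroxaban and 3.33 and 3.65 with dabigatran, against 2.87 and 2.64 in untreated hearts. The 3 groups did not overlap, with rivaroxaban libraries the highest. The log2 difference was 1.11 with rivaroxaban (SE 0.13, limma adjusted p = 0.00124) and 0.74 with dabigatran (SE 0.13, limma adjusted p = 0.0181). The dabigatran call was lost without dabigatran replicate 12 (0.58, limma adjusted p = 0.071) and without untreated replicate 9 (0.63, adjusted p = 0.0819). Between rivaroxaban and dabigatran the difference was 0.38 (limma adjusted p = 0.444). The median of the 17 genes was 0.01 with rivaroxaban and -0.006 with dabigatran. An unadjusted p under 0.05 was found for 4 of them with each drug, against 17.2% of all tested genes with rivaroxaban and 14.7% with dabigatran.

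Of 15 tested messages known as targets of the ZFP36 family, 3 were called higher with rivaroxaban (Cdkn1a, Vegfa and Notch1). With dabigatran 1 was called higher (Cdkn1a), and none was called lower with either drug. Over all tested genes, 1.47% were called higher with rivaroxaban and 1.38% with dabigatran. An unadjusted limma p under 0.05 was found for 6 and 3 of the 15, against 17.2% and 14.7% of all tested genes. This list too was chosen with earlier results of these libraries known, so its calls are no independent test. The median log2 difference of the 15 messages was 0.22 with rivaroxaban, with 11 of 15 above 0. With dabigatran it was 0.09, with 9 of 15 above 0. Over all tested genes the median was 0.005 and 0.003. The choice of the list enters its medians as well as its calls, so nothing is read from this contrast. Cdkn1a, the cell cycle inhibitor p21, stood at 4.83 and 5.13 log2 CPM with rivaroxaban and 5.03 and 4.91 with dabigatran, against 4.23 and 3.88 in untreated hearts. All drug libraries were above the untreated pair, by 0.92 with rivaroxaban (limma adjusted p = 0.00336) and by 0.91 with dabigatran (limma adjusted p = 0.00682). The rivaroxaban call was lost without rivaroxaban replicate 15 (0.77, limma adjusted p = 0.0567).

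Vegfa, an angiogenic growth factor, measured 8.83 and 8.79 log2 CPM with rivaroxaban and 8.75 and 8.71 with dabigatran, against 8.52 and 8.57 in untreated hearts. It did not overlap with untreated in either drug group, and the difference was called with rivaroxaban (0.26, limma adjusted p = 0.019) and not with dabigatran (0.18, adjusted p = 0.0952). Notch1, a receptor of cell-to-cell signalling, measured 4.92 and 4.90 log2 CPM with rivaroxaban and 4.64 and 4.81 with dabigatran, against 4.10 and 4.54 in untreated hearts. The untreated replicates were far apart, and the difference was 0.59 with rivaroxaban (limma adjusted p = 0.0334) and 0.40 with dabigatran (limma adjusted p = 0.151). The rivaroxaban calls of Vegfa (0.24, 0.29 and 0.24) and Notch1 (0.58, 0.60 and 0.37) were each lost without rivaroxaban replicate 14, rivaroxaban replicate 15 or untreated replicate 8. The dabigatran difference of Notch1 was 0.18 without untreated replicate 8 (limma adjusted p = 0.562), and 0.62 and called without untreated replicate 9 (limma adjusted p = 0.0228).

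In the annotated 3'UTRs, TATTTAT occurred 3 times in Vegfa, 4 times in Notch1 and not in Cdkn1a. At least 1 copy was present in 12 of the 15 targets (80%), against 30.4% of tested genes with an annotated 3'UTR. A high share is built into a list of known targets of a family that binds AU-rich elements, so nothing is read from it about these hearts. The classical inflammatory targets were too scarce to test. Tnf, the cytokine whose mRNA is the best known target of tristetraprolin, had 23 and 7 reads with rivaroxaban and 11 and 23 with dabigatran, against 34 and 40 in untreated hearts. Il1b, Il10, Ptgs2, Cxcl1, Cxcl2 and Ccl3 were also below the filter, with 1 to 54 reads in a library. These read counts are not scaled to library depth. By mean CPM, Tnf, Cxcl1 and Ccl3 were lower than untreated with both drugs, and Il10 and Ptgs2 were higher with both. Il1b and Cxcl2 differed in direction between the drugs. None of these directions was tested.

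**Figure D4:**
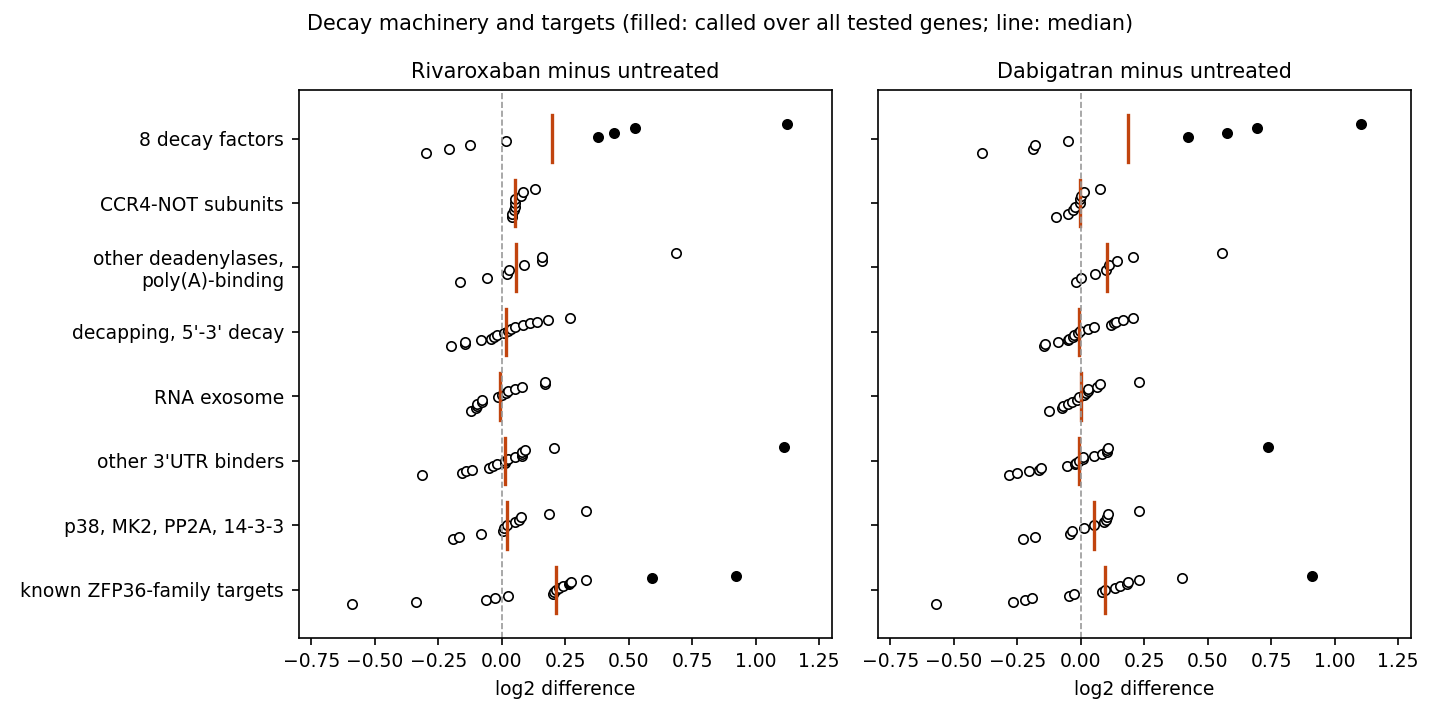
Log2 differences from untreated hearts on the horizontal axis for the genes of each list of decay machinery, regulators and known targets, with rivaroxaban and dabigatran in separate panels; each point is a gene, filled where called over all tested genes, and the line is the median of the list. The medians lie between -0.01 and 0.22. Filled points occur among the 8 decay factors (Tob2, Btg2, Rc3h1 and Zfp36), which are also shown, other 3'UTR-binding proteins (Arid5a) and known targets.

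The libraries held 27176892 to 43798222 reads in listed genes, recovered from the low values. The tissue label was matched by high cardiomyocyte markers, whose sum over 5 genes was 64090 and 65530 CPM with rivaroxaban and 66280 and 66990 with dabigatran, against 67530 and 68420 in untreated hearts. Sums over the 5 endothelial (907 to 1028 CPM), fibroblast (873 to 943), smooth muscle and pericyte (1173 to 1228) and macrophage markers (206 to 239) overlapped between the untreated group and at least 1 drug group. Neutrophil markers, 4 listed of 5, summed to 2.24 to 3.48 CPM and T and B cell markers, 4 listed of 5, to 3.06 to 4.25 CPM. Mesothelial markers, which line the heart surface, moved with the treatment: their sum over 5 genes was 37.2 and 42.6 CPM with rivaroxaban and 45.3 and 49.5 with dabigatran, against 67.7 and 65.0 in untreated hearts. With rivaroxaban 4 of these 5 genes (Msln, Upk3b, Krt19 and Krt18) were called lower and Wt1 higher, and with dabigatran Msln and Upk3b were called lower and Wt1 higher. The smooth muscle marker Myh11 was called lower with rivaroxaban (-0.34) and the red cell marker Slc4a1 higher with dabigatran (2.12). Slc4a1 was scarce, with 23 and 7 reads in the untreated libraries, and its difference with rivaroxaban (1.67) was not called. Red cell markers, 2 listed of 5, summed to 2.34 and 1.81 CPM with rivaroxaban and 3.36 and 2.29 with dabigatran, against 1.05 and 0.402 in untreated hearts, and no listed marker gene was at 0 over all libraries. The part of these cell markers in the differences of the 8 genes was not tested.

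Genes annotated on the opposite strand overlap Zfp36 (Gm44710), Zfp36l1 (Gm26669), Zfp36l2 (AC132455.1) and Tob2 (Gm49476). The libraries were directional, but the strand setting of the counting is not given in the sources used here, so reads of each gene and its antisense partner cannot be told apart. On the same strand, Gm37052, Gm37809 and Gm37653 lie within Rc3h1, and their reads cannot be told apart from those of Rc3h1 where exons overlap. None of these overlapping genes matched a row of the table by identifier.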

How the data were processed

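The authors deposited 1 table of log2 CPM for 6 heart libraries, which they scaled by TMM, per the file headers. STAR, edgeR, Trim Galore, FastQC, bcl2fastq and the build mm10 are listed, per the submitters' processing notes, and the libraries were directional, per the labels' protocols. For the counter, its strand setting and the gene annotation, the entry is: not given in the sources used here. All libraries share a floor of -4.04 log2 CPM, so differences of scarce genes are understated. Above it, 100% of values below 200 steps were whole reads within 0.02, each worth 0.0229 to 0.0373 CPM.

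Genes averaging 0 log2 CPM or more over the libraries were tested (12981 of 16229) with limma 3.58.1 in R 4.3.3: a linear model of 3 group means over all 6 libraries, eBayes with a trend, two-sided, 3 residual and 7.75 prior degrees of freedom, Benjamini-Hochberg over all tested genes, threshold 0.05, intervals at 95%. The test was also run on simulated reads with known changes, independent libraries and a fixed spread. That run did not cover the fit without the trend or libraries from the same animal. Replicate numbers are not shared between groups, so nothing was paired. No batch is named in the labels.

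The 8 genes and all lists were chosen with earlier results of these data known. Of 162 list entries, 148 matched by symbol; the others were not analysed here. Named were the 8 genes, listed paralogues, the called genes of each list (up to 4, or the 2 with the smallest p where none was called), the 5 genes most like Zfp36 and Btg2, and, after their values were seen, the 5 most like Tob2, the scarce targets and the marker genes that were called. For likeness, genes without an ordinary symbol were passed over. Promoters came from RefSeq (GRCm38.p6), gene models and 3'UTRs from GENCODE M21. In total, 13 alternatives were run, 6 of which left out 1 library each.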

Additional observations from a re-analysis of the deposited data

How the results depend on the processing

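Tob2, Btg2, Zfp36 and Rc3h1 kept the direction of both differences from untreated hearts under all 13 alternatives. Most of this was fixed in advance. Their drug and untreated libraries did not overlap, so leaving out 1 library could not change the sign. Alternatives that change only the filter, the trend or the groups fitted leave the difference itself unchanged, and such differences are also counted next. Of 312 differences of the 8 genes recomputed, 282 kept their direction and their side of the threshold, 18 lost a call, 1 gained one and 11 changed sign without being called; none that was called reversed.

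The mean-variance trend mattered most. Without it, limma called 0 genes with rivaroxaban, 0 with dabigatran and 0 between the drugs (1938, 1728 and 984 at an unadjusted p under 0.05), so that 0 of the 8 genes were called with either drug. With limma on voom-weighted reads, 4 and 4 of the 8 genes were called higher with rivaroxaban and dabigatran. Of all 12981 tested genes, 183 and 163 were called higher in that fit. The 8 genes were chosen with results of these libraries known, so these calls are no independent test either.

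Leaving out 1 library moved the number of genes called with rivaroxaban over 61 to 410 (319 with all libraries). It was 173 without rivaroxaban replicate 14, 61 without rivaroxaban replicate 15, 134 without untreated replicate 8 and 212 without untreated replicate 9. With dabigatran the range was 73 to 270 (244 with all), with 98 without dabigatran replicate 10, 73 without untreated replicate 8 and 150 without untreated replicate 9. Between the drugs it was 0 to 20 (10 with all), with 0 without rivaroxaban replicates 14 or 15 or dabigatran replicate 10, 20 without dabigatran replicate 12 and 6 without either untreated library. The drug comparison gave 1 gene when the filter asked for a mean of 2 log2 CPM and 6 with only the 2 groups compared. Of the 8 genes, 1 to 4 were then called higher with rivaroxaban, 2 to 4 higher with dabigatran and 0 to 1 lower with dabigatran (Btg1). The cause of these shifts was not tested, beyond there being fewer samples in each.

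Depth limits the scarce genes: Tnf and 6 other inflammatory targets were below the filter and were not tested.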
